A study of Mus musculus with 6 samples.

Results

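The endocannabinoid genes examined here are Cnr1, Dagla, Daglb, Napepld, Mgll, Abhd6 and Faah, which encode the CB1 cannabinoid receptor and the main enzymes that make and break down its lipid ligands. They were taken by symbol from a table of 37620 genes, and all 7 were among the 16127 genes kept for testing, whose mean over the 6 mice was 10 normalized counts or more. Expression was measured by RNA Seq in the PLc, the pre-limbic part of the medial prefrontal cortex, of wild-type C57Bl/6 mice aged 9 weeks. Saline mice 1, 6 and 10 received the vehicle and ketamine mice 3, 5 and 9 received ketamine at 30 mg/kg, by intraperitoneal injection on each of 5 days, and the brains were removed 2 days after the injections ended. Each library is named here by the number in its label, which is taken as a mouse. The labels do not state that each number is a separate animal, so the p-values measure only the spread between these 6 samples, which may be technical. No transgene or further drug is stated for either group. In the values used here, called normalized counts, the reads of each gene were divided by a size factor for the library. Several libraries stood apart in markers of cells and regions. Striatal marker sums were highest in ketamine mice 3 and 5. Olfactory bulb marker sums were above saline in every ketamine mouse and by far the highest in mouse 9. Saline mouse 10 stood apart in oligodendrocyte and choroid plexus markers, while markers of cortical excitatory neurons were detected in all 6. Their sums, and the results without single mice, are given beside the values they touch.

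Endocannabinoids are lipid messengers that neurons make on demand, usually from the postsynaptic membrane, and that travel backwards across the synapse. In the cortex they bind CB1 on axon terminals, above all those of cholecystokinin interneurons and, at lower density, of excitatory neurons, and reduce transmitter release. The 2 best known are 2-arachidonoylglycerol (2-AG), made by the diacylglycerol lipases and broken down mainly by monoacylglycerol lipase, and anandamide, an N-acylethanolamine that is broken down by fatty acid amide hydrolase. RNA levels of the enzymes do not give the levels of these lipids, which were not analysed here.

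Loci are given on mm9, the build to which the reads were aligned, from GENCODE M1. Cnr1 (ENSMUSG00000044288) lies on chromosome 4 from 34011568 to 34035806 on the plus strand. Dagla (ENSMUSG00000035735) lies on chromosome 19 from 10319755 to 10379367 on the minus strand, and its partner Daglb (ENSMUSG00000039206) on chromosome 5 from 144225361 to 144265310 on the plus strand. Mgll (ENSMUSG00000033174) lies on chromosome 6 from 88674406 to 88778354 and Abhd6 (ENSMUSG00000025277) on chromosome 14 from 8835416 to 8889069, both on the plus strand. Napepld (ENSMUSG00000044968) lies on chromosome 5 from 21168719 to 21207214 and Faah (ENSMUSG00000034171) on chromosome 4 from 115639750 to 115690531, both on the minus strand. The only exon overlap with another annotated gene was that of Mgll with Gm16628, a lincRNA on the opposite strand, over 90 bases. Gm16628 averaged 66.5 normalized counts.

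Promoter sequences are shown for Faah and Napepld, whose ketamine values all lay below the saline values, and for Cnr1, whose values overlapped between the groups. Each is the 250 bases upstream of the RefSeq start on GRCm38.p6, a later build than the reads' mm9, written 5′ to 3′ on the gene's strand, and 6 of the 7 genes had an entry. Capitals mark the GC box (GGGCGG or its reverse complement CCGCCC), a motif of Sp1-type factors, in Faah and Cnr1, and the core AAGATGG or its reverse complement CCATCTT, known from YY1 sites, in Napepld.
Faah, chr4:116017925-116018174, minus strand: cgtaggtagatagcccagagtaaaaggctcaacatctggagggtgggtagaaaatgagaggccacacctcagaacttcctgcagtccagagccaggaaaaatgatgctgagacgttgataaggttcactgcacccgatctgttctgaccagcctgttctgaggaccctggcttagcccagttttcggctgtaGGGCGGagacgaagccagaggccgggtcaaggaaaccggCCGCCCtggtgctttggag
Napepld, chr5:21701623-21701872, minus strand: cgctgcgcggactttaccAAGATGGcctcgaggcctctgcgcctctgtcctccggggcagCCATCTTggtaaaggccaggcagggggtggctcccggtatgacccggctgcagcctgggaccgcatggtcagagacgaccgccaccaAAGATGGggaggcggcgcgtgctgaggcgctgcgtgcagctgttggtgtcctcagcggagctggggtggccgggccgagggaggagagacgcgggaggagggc
Cnr1, chr4:33924014-33924263, plus strand, the first of 3 starts listed: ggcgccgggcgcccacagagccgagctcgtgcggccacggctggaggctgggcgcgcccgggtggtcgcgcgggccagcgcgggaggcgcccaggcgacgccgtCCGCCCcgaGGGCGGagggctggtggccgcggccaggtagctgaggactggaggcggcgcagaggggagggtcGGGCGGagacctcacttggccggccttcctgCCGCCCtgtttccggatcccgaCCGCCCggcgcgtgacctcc

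The Cnr1 stretch was 79.2% G and C with 36 CpG dinucleotides and 5 GC boxes, and the Faah stretch was 55.6% G and C with 9 CpG and 2 GC boxes. The Napepld stretch lay between these at 69.6% and 21 CpG, held no GC box, and had 3 copies of the AAGATGG core. Over the 32851 promoters of the same length in the table, the median was 52.4% G and C and 6 CpG. A GC box was found in 32.7% of them and the AAGATGG core in 4.49%, searched on both strands. The cyclic AMP response element core CGTCA, or its reverse complement TGACG, was found in 17.8% of all promoters and in none of these 3 stretches. The AAGATGG core was chosen after the Napepld sequence had been seen, and no factor binding was measured.

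To compare the genes with each other, normalized counts were divided by the length of all annotated exons of the gene in kilobases. In saline mice Mgll was the most abundant at 1827 ± 325 normalized counts per kilobase (SD, n = 3), followed by Cnr1 at 902 ± 221 and Dagla at 694 ± 41.8. Abhd6 followed at 673 ± 62.4 and Faah at 452 ± 24.6, and Daglb at 237 ± 31.2 and Napepld at 154.5 ± 14.4 were the least abundant. Mgll, the serine hydrolase that ends most 2-AG signalling, was thus 2.02 times as abundant per kilobase as Cnr1 and stood higher than 94.8% of the 16093 genes that could be scaled by length. Napepld, the phospholipase D that releases anandamide and other N-acylethanolamines from membrane lipids, stood higher than 49.7% of them. Neighbours in this order did not overlap between saline mice, except Cnr1 with Dagla and Dagla with Abhd6. Dagla and Abhd6 changed places when the longest transcript was used as the length or when all 6 mice were averaged. In ketamine mice the levels per kilobase were 1409 for Mgll, 840 for Cnr1, 576 for Abhd6, 411 for Dagla, 298 for Faah, 196 for Daglb and 102 for Napepld.

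**Figure D1:**
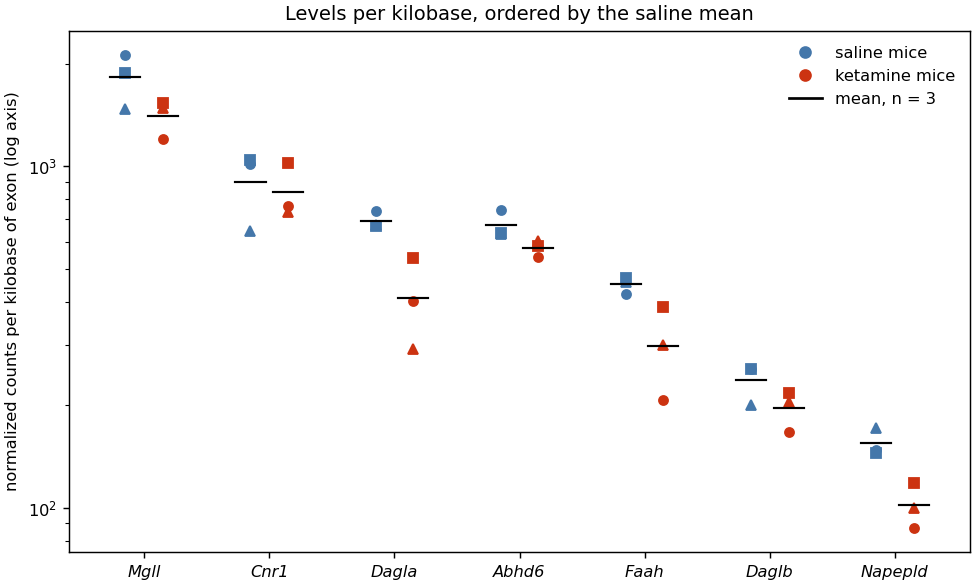
Normalized counts per kilobase of exon on a log axis for the 7 genes, ordered by the saline mean, with a point for each mouse (circle, square and triangle are mice 1, 6 and 10 of the saline group and 3, 5 and 9 of the ketamine group) and a line for the mean of 3 mice. Mgll is at the top at 1827 and Napepld at the bottom at 154.5 in saline mice, and Dagla and Abhd6 have nearly the same saline level but differ in ketamine mice, at 411 and 576.

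Cnr1 encodes CB1, the Gi/o-coupled receptor for 2-AG and anandamide in the brain. It had 6559, 6711 and 4172 normalized counts in saline mice 1, 6 and 10, against 4920, 6583 and 4742 in ketamine mice 3, 5 and 9. The groups overlapped, and the lowest value of all was in saline mouse 10. The mean was 5814 ± 1424 in saline and 5415 ± 1016 in ketamine mice (SD, n = 3 each), or 93.1% of saline. The log2 fold change was -0.086 (limma, standard error, SE, 0.229, adjusted p = 0.999), and its sign turned when saline mouse 1, saline mouse 6 or ketamine mouse 9 was left out, at 0.017, 0.034 and 0.0018. The exact permutation test gave p = 0.9 (two-sided).

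Dagla encodes diacylglycerol lipase alpha, the postsynaptic enzyme that makes the 2-AG for retrograde signalling at most central synapses. It had 4264, 3835 and 3860 normalized counts in saline mice 1, 6 and 10, against 2326, 3090 and 1676 in ketamine mice 3, 5 and 9. Every ketamine mouse lay below every saline mouse, with mouse 9 lowest and mouse 5 nearest to saline. The mean was 3986 ± 240 in saline and 2364 ± 708 in ketamine mice (SD, n = 3 each), or 59.3% of saline. The log2 fold change was -0.80 (SE 0.221, limma unadjusted p = 0.0083, adjusted p = 0.578), and it lay between -1.01 and -0.57 when single mice were omitted. DESeq2 on the reads recovered from the normalized counts gave -0.75 (SE 0.247, adjusted p = 0.134).

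Daglb encodes diacylglycerol lipase beta, the related enzyme best known from microglia and macrophages. It had 1446, 1445 and 1139 normalized counts in the saline mice and 946.6, 1230 and 1157 in the ketamine mice, in the same order. The groups overlapped, because saline mouse 10 was below ketamine mice 5 and 9. The mean was 1343 ± 177 in saline and 1111 ± 147 in ketamine mice (SD, n = 3 each), with a log2 fold change of -0.27 (SE 0.163, limma adjusted p = 0.999). It lay between -0.39 without saline mouse 10 and -0.16 without ketamine mouse 3.

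The balance of these lipases was also given within each mouse, as the log2 ratio of Dagla to Daglb per kilobase. It was 1.54, 1.39 and 1.74 in saline mice 1, 6 and 10, against 1.28, 1.31 and 0.52 in ketamine mice 3, 5 and 9. No ketamine value reached a saline value, with a difference in means of -0.52, but ketamine mice 3 and 5 were close to saline mouse 6. The ratio does not depend on the size factor of the library, and it was not tested.

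Mgll encodes monoacylglycerol lipase, the presynaptic and glial enzyme that breaks down most 2-AG. It had 10325, 9164 and 7192 normalized counts in saline mice 1, 6 and 10, against 5856, 7489 and 7234 in ketamine mice 3, 5 and 9. The groups overlapped, since saline mouse 10 lay just below ketamine mice 5 and 9. The mean was 8894 ± 1584 in saline and 6860 ± 879 in ketamine mice (SD, n = 3 each), or 77.1% of saline. The log2 fold change was -0.37 (SE 0.181, limma adjusted p = 0.937) and lay between -0.51 without saline mouse 10 and -0.25 without saline mouse 1.

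Abhd6 encodes a serine hydrolase of the postsynaptic membrane that takes a smaller part in 2-AG breakdown. It had 1620, 1389 and 1381 normalized counts in the saline mice and 1181, 1266 and 1310 in the ketamine mice. The groups did not overlap, but the gap between the highest ketamine mouse and the lowest saline mouse was narrow. The mean was 1463 ± 136 in saline and 1253 ± 65.2 in ketamine mice (SD, n = 3 each), with a log2 fold change of -0.22 (SE 0.127, limma adjusted p = 0.999). It lay between -0.26 without saline mouse 10 and -0.15 without saline mouse 1.

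The log2 ratio of Dagla to Mgll per kilobase, which sets the main 2-AG synthesis gene against the main breakdown gene, was -1.52, -1.50 and -1.14 in the saline mice and -1.57, -1.52 and -2.35 in the ketamine mice. Only ketamine mouse 9 lay clearly apart, and ketamine mouse 5 and saline mouse 1 had nearly the same value. The ratio of Mgll to Abhd6 overlapped between the groups, with a difference in means of -0.15.

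Napepld had 584.3, 572.3 and 676.5 normalized counts in saline mice 1, 6 and 10, against 344.6, 468.5 and 395.2 in ketamine mice 3, 5 and 9. Every ketamine mouse was below every saline mouse. The mean was 611.0 ± 57.0 in saline and 402.8 ± 62.3 in ketamine mice (SD, n = 3 each), or 65.9% of saline. The log2 fold change was -0.61 (SE 0.164, limma unadjusted p = 0.00721, adjusted p = 0.541) and lay between -0.72 and -0.50 when single mice were omitted. DESeq2 gave -0.60 (SE 0.197, adjusted p = 0.137).

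Faah encodes fatty acid amide hydrolase, the membrane enzyme of neurons that breaks down anandamide. It had 3320, 3688 and 3604 normalized counts in saline mice 1, 6 and 10, against 1620, 3033 and 2349 in ketamine mice 3, 5 and 9. Again no ketamine mouse reached the saline range, with mouse 3 lowest and mouse 5 nearest to saline. The mean was 3537 ± 193 in saline and 2334 ± 707 in ketamine mice (SD, n = 3 each), or 66.0% of saline. The log2 fold change was -0.64 (SE 0.226, limma unadjusted p = 0.0237, adjusted p = 0.741) and lay between -0.86 and -0.40 when single mice were omitted. DESeq2 gave -0.60 (SE 0.251, adjusted p = 0.459). The log2 ratio of Napepld to Faah per kilobase overlapped between the groups, at -1.55 ± 0.140 in saline and -1.51 ± 0.239 in ketamine mice (SD, n = 3 each).

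**Figure D2:**
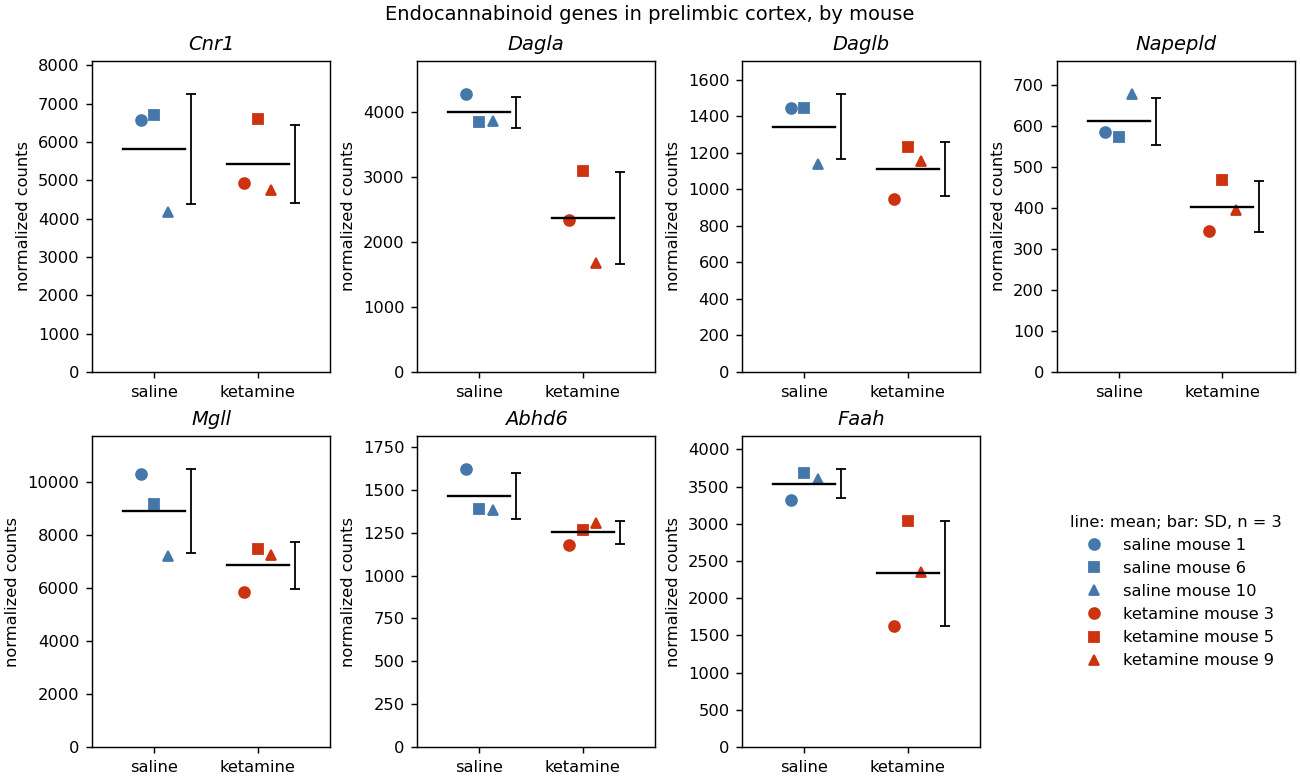
Normalized counts of each gene in each mouse, with the axis from 0, a line for the group mean and a bar for the SD of 3 mice. Dagla, Napepld, Abhd6 and Faah have all ketamine points below all saline points, Cnr1, Daglb and Mgll overlap, and ketamine mouse 5 (red square) is the ketamine mouse nearest to saline for Dagla, Napepld and Faah.

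Against the 16127 genes tested, all 7 genes had a negative log2 fold change, a sign shared by 53.0% of tested genes. The median of the 7 was -0.37, beside -0.014 over all tested genes. For 4 of 7 every ketamine mouse was below every saline mouse, as it was for 4.66% of tested genes, and for 3 of 7 the unadjusted limma p was under 0.05 in the lower direction, as it was for 2.37%. These 3 were Dagla, Faah and Napepld. With 1 mouse omitted at a time, Dagla and Napepld stayed under 0.05 in every fit. Faah did not without saline mouse 6 (1.04% of tested genes in that fit), ketamine mouse 3 (1.10%) or saline mouse 10 (5.02%), and without saline mouse 10 Mgll did. The share of tested genes was 1.04% without saline mouse 1, 3.79% without ketamine mouse 5 and 4.26% without ketamine mouse 9. Dagla, Faah and Napepld were near the low end, where only 2.05%, 3.46% and 3.94% of tested genes had a lower log2 fold change, and Cnr1 was at 35.9%. At an adjusted p under 0.05, limma called 0 of the 7 genes and 0% of tested genes, and edgeR called 0 of each. DESeq2 called 0 of the 7, while over all genes it called 0.229% lower and 0.899% higher in ketamine. The exact permutation test (two-sided) gave p = 0.1 for Dagla, Faah, Napepld and Abhd6, the smallest p that 3 mice against 3 allow, and p = 0.3 for both Daglb and Mgll.

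Ketamine mouse 5 decided the call by DESeq2 for 3 genes. Without it, DESeq2 gave a log2 fold change of -0.99 for Dagla (adjusted p = 0.00099), -0.83 for Faah (adjusted p = 0.024) and -0.72 for Napepld (adjusted p = 0.0362), all past the threshold. In that refit, 0.595% of tested genes were called lower. With any other mouse left out, no adjusted p of these 3 genes was under 0.05 by DESeq2, although that of Dagla was 0.051 without ketamine mouse 9. Leaving out ketamine mouse 5 and using limma gave adjusted p-values of 0.274 for Dagla, 0.376 for Faah and 0.393 for Napepld. The DESeq2 refits were chosen after the data had been seen.

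**Figure D3:**
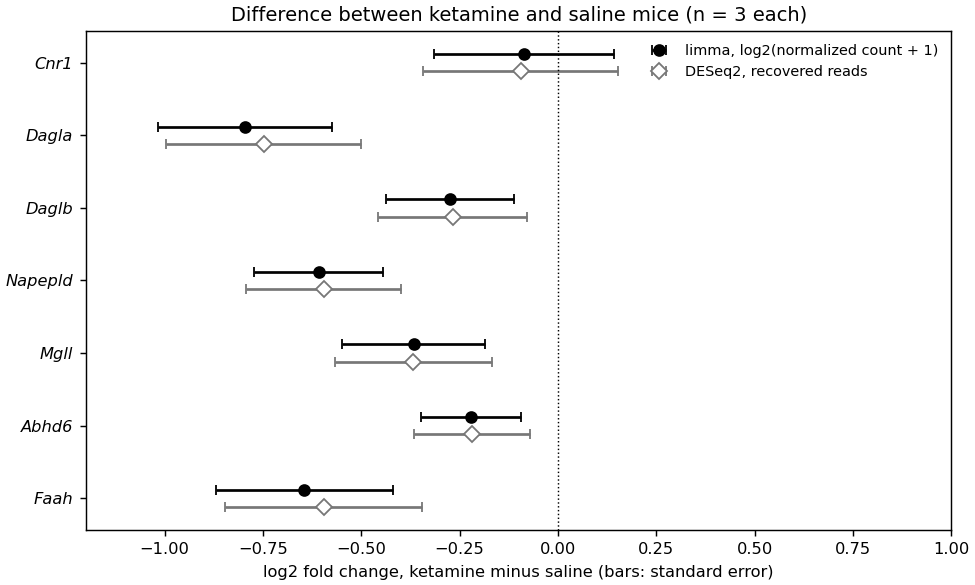
Log2 fold change, ketamine minus saline, for each gene, with bars of 1 standard error, from limma on log2(normalized count + 1) (filled circles) and from DESeq2 on recovered reads (open diamonds). Both tools place Dagla lowest, at -0.80 and -0.75, with Faah and Napepld next and nearly level, and Cnr1 nearest to 0 at -0.086 and -0.095.

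Marker genes of cell types and of neighbouring regions also differed between the mice. The summed normalized counts of 7 markers of cortical excitatory neurons were 184929, 173082 and 140047 in saline mice 1, 6 and 10, against 89200, 149777 and 100731 in ketamine mice 3, 5 and 9. The sums overlapped, since ketamine mouse 5 lay above saline mouse 10. All 7 markers had a negative log2 fold change, as did 53.0% of tested genes, with a median of -0.60. Of the 7, 2 (Neurod2 and Neurod6) were below saline in every ketamine mouse, as were 4.66% of tested genes, and the other markers overlapped. DESeq2 called 1 of the 7 lower, Neurod6, beside 0.229% of tested genes. Among the ketamine mice, mouse 5 had the most of these markers and was also the highest for Cnr1, Dagla, Daglb, Mgll, Faah and Napepld. Sums of 11 striatal projection neuron markers were between 9969 and 10852 in saline mice, and 70985, 36939 and 10991 in ketamine mice 3, 5 and 9. Of the 11, 3 (Penk, Tac1 and Adora2a) were above saline in every ketamine mouse, as were 5.69% of tested genes. The other genes of this list overlapped. Sums of 7 genes listed as olfactory bulb markers were between 650 and 1721 in saline mice, and 3127, 1897 and 11071 in ketamine mice 3, 5 and 9. In saline mouse 10, which had the 1721, Slc17a6 gave 857.7 and Th 610.6. Of the 7, 4 were above saline in every ketamine mouse, as were 5.69% of tested genes, and the other genes overlapped. Cdhr1, 1 of these 4, was at most 119.7 in saline mice, against 899.6, 816.6 and 4006 in ketamine mice 3, 5 and 9. Each striatal and olfactory bulb marker was detected in all 6 libraries. Sums of 4 pan GABAergic markers were between 25019 and 29501 in saline and between 33236 and 51463 in ketamine mice. Their part in the differences of the endocannabinoid genes was not tested, and in bulk tissue fewer cells of a type and less RNA per cell cannot be told apart.

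Marker lists for CCK basket interneurons, glia, endothelium and choroid plexus were also summed. The 8 markers listed for CCK basket interneurons, whose terminals carry dense CB1, came to 14138, 15826 and 10546 in saline mice 1, 6 and 10, against 7410, 10895 and 14791 in the ketamine group. Cck alone gave 9341 of the sum in saline mouse 1 and 9751 in ketamine mouse 9, so the sum mostly follows Cck. Within the list, Npas1 was below saline in every ketamine mouse (log2 fold change -0.79) and Cxcl14 above (0.25), and the other genes overlapped. The sums overlapped, and so did those of 8 astrocyte, 6 microglia and 5 endothelial markers. Oligodendrocyte sums ran from 43443 to 375413 in saline mice, with the highest value in mouse 10, and from 104408 to 159720 in ketamine mice. Saline mouse 10 also had the highest sum of choroid plexus markers, 3082 against at most 734 in any other mouse, where 4 of 5 markers were detected in all 6 libraries. Mouse 10 had the lowest value of Cnr1 in any mouse, and the lowest of Mgll, Daglb and, narrowly, Abhd6 among saline mice. Among saline mice it was the highest for Napepld and lay between the others for Dagla and Faah.

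**Figure D4:**
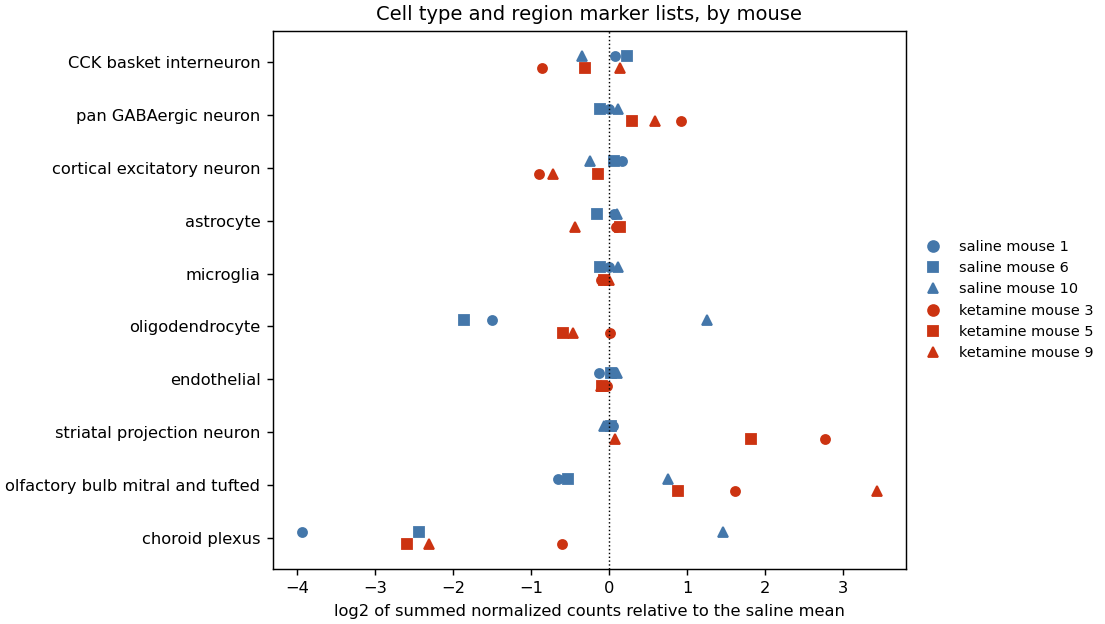
Log2 of the summed normalized counts of each marker list in each mouse, relative to the saline mean of the list. Striatal sums are highest in ketamine mouse 3 (70985) and olfactory bulb sums in ketamine mouse 9 (11071), excitatory neuron sums are lowest in ketamine mouse 3 (89200), and oligodendrocyte and choroid plexus sums are highest in saline mouse 10.

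As an alternative added after seeing the data, each gene was expressed as a percentage of the 7 summed excitatory neuron markers of the same mouse. Cnr1 then came to 3.55%, 3.88% and 2.98% in saline mice 1, 6 and 10, against 5.52%, 4.40% and 4.71% in ketamine mice 3, 5 and 9. Every ketamine mouse was thus higher than every saline mouse (log2 difference 0.49, exact permutation test, two-sided, p = 0.1). Dagla came to 2.31%, 2.22% and 2.76% in the saline mice and 2.61%, 2.06% and 1.66% in the ketamine mice, which overlapped (log2 difference -0.22, exact permutation p = 0.4). The log2 difference was -0.066 for Faah and -0.030 for Napepld, both overlapping between the groups (exact permutation p = 0.8 for each). It was positive for Abhd6 at 0.36, Daglb at 0.30 and Mgll at 0.21, and all 3 overlapped. So among the 7 genes only Cnr1 had groups that did not overlap on this scale, although ketamine mice 5 and 9 were below every saline mouse for Dagla. Dividing by this sum raises the log2 difference of every gene in the table by the same amount. Before the division Cnr1, at -0.086, was below the median of all tested genes, -0.014. The share of all tested genes above saline on this scale was not computed, so the values do not show a rise particular to Cnr1. Relative to Camk2a alone, an abundant kinase of excitatory neurons, the log2 difference was 0.51 for Cnr1, -0.20 for Dagla, -0.045 for Faah and -0.0087 for Napepld. Camk2a is itself 1 of the 7 markers and gave most of their sum. It had 121654 of 184929 in saline mouse 1 and 62372 of 89200 in ketamine mouse 3. The Camk2a scale is therefore not an independent check of the summed one. These ratios are tied to the marker genes, which themselves differed between the mice.

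**Figure D5:**
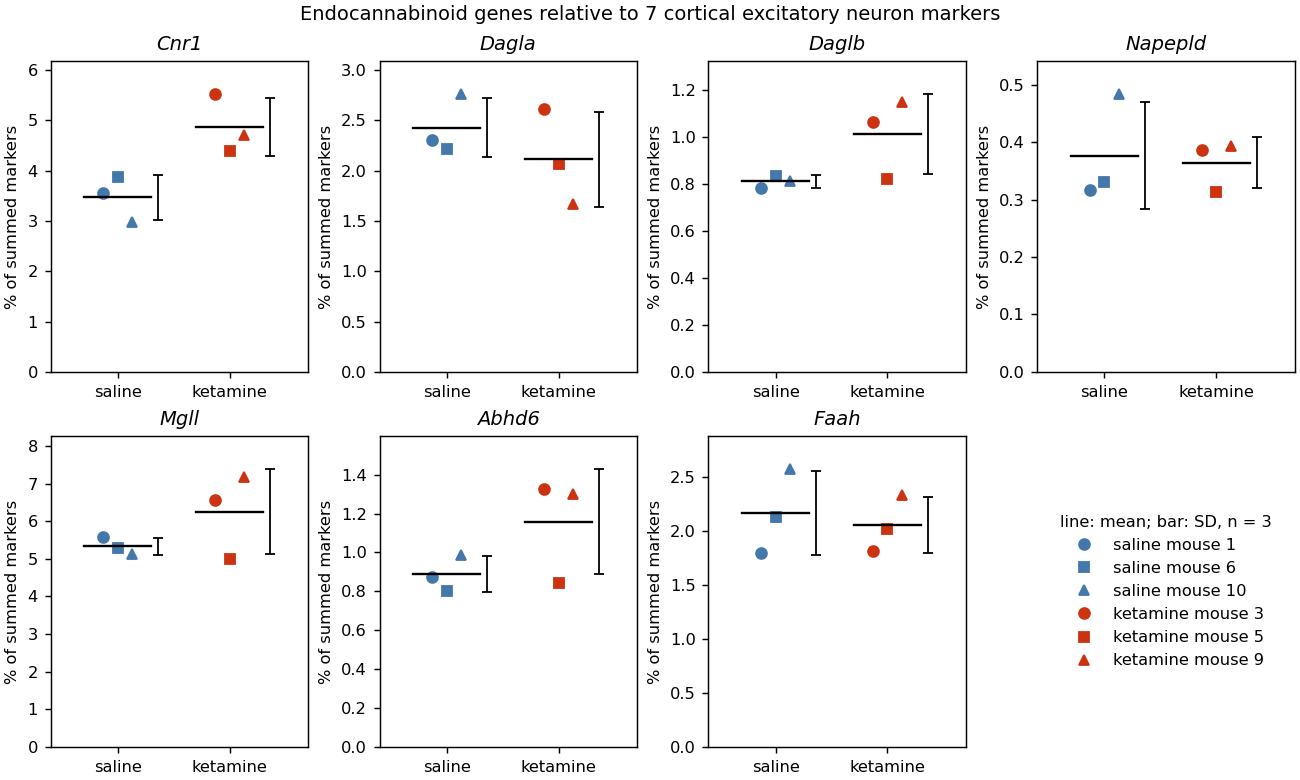
Each gene as a percentage of the summed normalized counts of 7 cortical excitatory neuron markers in the same mouse, with the axis from 0, a line for the group mean and a bar for the SD of 3 mice. Cnr1 is above saline in every ketamine mouse (4.40% to 5.52% against 2.98% to 3.88%), and the groups overlap for the other 6 genes.

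The genes with the most similar pattern over the 6 mice were found among the 12413 genes averaging 100 normalized counts or more, as the smallest root mean square difference between log2 profiles, each centred on its own mean. For Cnr1 they included Nln (0.036), a peptidase gene, and Ccdc157 (0.0439). Nln had 1310, 1261 and 844 normalized counts in saline mice 1, 6 and 10, against 985, 1278 and 923 in ketamine mice 3, 5 and 9, with the lowest value in saline mouse 10 as for Cnr1. For Mgll they were Adap1 (0.0447), Rilpl1 (0.0488) and 1810055G02Rik (0.0505). For Dagla they were Satb1 (0.0943), a chromatin organiser, Itgb3 (0.0951), an integrin, and Crb2 (0.104). Satb1 had 3683, 3176 and 3022 normalized counts in the saline mice and 1808, 2193 and 1415 in the ketamine mice, the same order of ketamine mice as for Dagla. For Faah they were Slc26a8 (0.0946), Otx1 (0.122), a homeobox gene of deep cortical layers, and Cpeb1 (0.127), a regulator of mRNA translation. The differences were larger for Dagla and Faah than for Cnr1 and Mgll, but this measure is not scaled by a gene's own spread. The highest library was 2.54 and 2.28 times the lowest for Dagla and Faah, against 1.61 and 1.76 for Cnr1 and Mgll. The values therefore do not rank how well the patterns match between these genes, and they describe 6 libraries only.

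Of 48 further genes of the pathway, 42 passed the filter, and 0 were called at an adjusted p under 0.05 by limma, edgeR or DESeq2. Their median log2 fold change was -0.12, with 12 positive and 30 negative, where 53.0% of all tested genes were negative. Of the 42, 4 had an unadjusted limma p under 0.05, as did 5.81% of all tested genes in either direction. Every ketamine mouse was below every saline mouse for 3 of the 42, Ptgs2, Chrm3 and Gnaq, and above for 1, Fabp7. Over all tested genes, 4.66% were below and 5.69% above.

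CB1 was the only classical cannabinoid receptor of these libraries above the filter. Cnr2, the receptor of immune cells, had between 1.92 and 9.97 normalized counts in a library, and Gpr55, Gpr18, Gpr119 and Trpv1, other proposed targets, were also below the filter. The nuclear receptor genes Pparg, at a log2 fold change of -0.68, and Ppara, at -0.055, overlapped between the groups.

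Among genes of the Gq pathway, by which muscarinic and group I glutamate receptors drive 2-AG release, 4 were higher and 6 lower by sign. Chrm3, the M3 muscarinic receptor, had 1469, 1160 and 1011 normalized counts in saline mice 1, 6 and 10, against 567.7, 923.8 and 333.6 in ketamine mice 3, 5 and 9. The order of its ketamine mice was that of Dagla, and the log2 fold change was -1.10 (SE 0.355, limma adjusted p = 0.677). Gnaq, the G protein subunit of this pathway, had 8920, 8064 and 7784 in the saline mice and 6706, 7466 and 6810 in the ketamine mice, a log2 fold change of -0.24.

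Among other breakdown enzymes, Ptgs2, the cyclooxygenase that can oxidise 2-AG and anandamide, had 358.3, 474.8 and 649.0 normalized counts in the saline mice and 171.3, 325.5 and 352.6 in the ketamine mice. Its log2 fold change was -0.83 (SE 0.331, limma adjusted p = 0.828), with ketamine mouse 9 just below saline mouse 1. Naaa, an acid amidase of lysosomes, was at 0.33 and overlapped. Of the other synthesis enzymes 2 were higher and 6 lower by sign, and Pla2g4e, an N-acyltransferase that makes the precursors used by the Napepld product, was at -0.60 and overlapped, as did Inpp5d at -0.24.

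Among lipid carriers, Fabp7, the brain fatty acid binding protein of astrocytes and progenitors, had 543.1, 502.8 and 476.6 normalized counts in the saline mice and 833.0, 736.6 and 3344 in the ketamine mice. Most of its log2 fold change of 1.32 (SE 0.534, limma adjusted p = 0.838) came from ketamine mouse 9, the mouse with the highest olfactory bulb sum. Fabp3 was at -0.20 and overlapped. Of the 13 genes of G proteins, channels and arrestins that act downstream of CB1, 3 were higher and 10 lower by sign, with a median of -0.12. The largest log2 fold changes were those of Kcnj6, a GIRK potassium channel, at -0.98, and Cacna1a, the P/Q-type calcium channel of terminals, at -0.57, and both overlapped between the groups.

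Reads per library, recovered from the normalized counts, came to between 26273436 and 32643726, and the least covered of the 7 genes, Napepld, had between 352 and 616 reads in a library.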

How the data were processed

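RNA Seq of the PLc was compared between 3 saline and 3 ketamine mice, grouped by the treatment named in the labels. Mouse numbers differ between the groups, so nothing was paired. The authors aligned reads to mm9 with TopHat2 2.0.11, counted them with HTSeq and used DESeq2, after CASAVA. What was deposited is a signal for each gene, the read count scaled by its library's size factor and rounded. The annotation and strand setting are not given in the sources used here, so reads of genes overlapping on opposite strands cannot be told apart. Every value fell on a whole number of reads, within 0.1 reads, which gave back the reads of each library.

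Log2(normalized count + 1) was fitted with limma 3.58.1 (trend, R 4.3.3) over the 16127 genes averaging 10 normalized counts or more. Fold changes on this scale understate changes of low genes. Two-sided p-values were adjusted by Benjamini-Hochberg at 0.05. Single genes also had an exact permutation test. Alternatives were edgeR 4.0.16 (quasi-likelihood) and DESeq2 1.42.0 on the recovered reads, pseudocounts of 0.1 and 5, no filter, a minimum of 100, other scalings, no trend, and each mouse left out.

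The 7 genes and all lists were chosen with earlier results of these data known. Besides the 7, the text names the 2 genes of each pathway list with the smallest limma p, any that DESeq2 called, the 3 genes most like Cnr1, Dagla, Mgll and Faah over the mice, and marker lists. The deposited table named 20515 genes by symbol, and a table of gene names added 16730. Other genes named for being below the filter or not overlapping were picked after their values were seen. Promoters were read from a RefSeq table. No protein sequence was used here. Of the genes most like Cnr1, 1 is not reported here.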

Additional observations from a re-analysis of the deposited data

How the results depend on the processing

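For Dagla, Faah and Napepld every alternative kept the negative sign, and limma called none of the 7 genes under any alternative. The number of genes called over the whole table was 0 by limma and edgeR and 182 by DESeq2, and with each mouse left out limma called 0 to 1. Leaving out each mouse in turn gave log2 fold changes from -0.31 to 0.034 for Cnr1, with 0.017 without saline mouse 1, 0.034 without saline mouse 6 and 0.0018 without ketamine mouse 9, and by DESeq2 from -0.28 to 0.022. Relative to the summed excitatory markers, Cnr1 turned to 0.49, Daglb to 0.30, Mgll to 0.21 and Abhd6 to 0.36. Relative to Camk2a, which gave most of that sum, they came to 0.51, 0.33, 0.23 and 0.38 in the same order. Faah and Napepld stayed negative but came close to 0, at -0.066 and -0.030 relative to the summed markers and at -0.045 and -0.0087 relative to Camk2a. By construction these divide by markers that were lower on average in ketamine mice, which on each scale raises the log2 difference of every gene alike. Both the sum and Camk2a overlapped between the groups. Dagla was lowest with ketamine mouse 9 as the only ketamine mouse, at -1.25. In that fit, which rests on a lone ketamine mouse, Faah was at -0.59, Napepld at -0.62 and Cnr1 at -0.26. The median of the other pathway genes was then -0.30 instead of -0.12. Pseudocounts, filters and scalings changed no sign or call of the 7 genes. No paired analysis was possible because the groups share no mouse numbers. With 3 mice a group, the exact test cannot fall below 0.1, and outliers within groups were not tested.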
